A study of Homo sapiens with 6 samples.

Results

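*NDRG1*, *ANKRD37*, *CA9*, *BNIP3*, *BNIP3L*, *P4HA1*, *P4HA2* and *PLOD2* are target genes of the hypoxia-inducible factors (HIF) that encode no glycolytic enzyme. These 8 genes were taken by name from a table of 17222 gene names. They were selected on values of these same libraries, their difference between H226 cells depleted of the lncRNA *SWINGN* and control cells, so their levels and changes are given as a description and no p-value is given for them. H226 is an established human cell line, labelled as squamous lung carcinoma. The cells were transiently transfected with the antisense oligonucleotide ASO_LINC#3, which targets *SWINGN*, or with the control oligonucleotide ASO_CTRL, and the total RNA of 3 libraries per condition was sequenced after 48 h. A single oligonucleotide represents the knockdown, and all 6 libraries come from transfected cells. Whether *SWINGN* itself was depleted was not checked, as its transcript was not analysed here.

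Reads counted on genes ranged from 5738340 to 10546786 in the control libraries and from 3686828 to 6780016 in the knockdown libraries, where replicate 3 was the shallowest. Of 7 squamous carcinoma markers, 3 had a row in the table, and the highest was the basal keratin *KRT5* at 62.6 to 117 CPM, the count scaled to the size of the library. *KRT6A* and *TRIM29* reached at most 2.06 and 2.48 CPM, and *TP63*, *KRT14*, *SOX2* and *DSG3* had no row. The summed level of the squamous markers was 96.8 to 119.8 CPM in ASO_CTRL and 64.2 to 80.2 CPM in ASO_LINC#3. All 7 mesothelial markers had a row, with a summed level of 9393 to 10372 CPM in ASO_CTRL and 5336 to 9434 CPM in ASO_LINC#3. Most of this sum came from the keratins *KRT7* and *KRT18*, with ASO_CTRL means of 3822 and 5086 CPM. *CALB2* had an ASO_CTRL mean of 601 CPM and *PDPN* of 100 CPM. *MSLN*, *WT1* and *UPK3B* were lower, at 29.1, 46.0 and 49.4 CPM. Of the 7, *CALB2* was called lower upon knockdown. So was *KDR*, the only one of 4 endothelial markers with a row, whose level stayed below 8 CPM. Of 4 leukocyte markers only *CD14* had a row, at 0.73 to 2.17 CPM, and of 3 fibroblast markers none. The part of these differences in the results was not tested. The paper states in general that its experiments were done in biological triplicate unless a legend says otherwise. No label of these libraries states that those of a condition come from separate cultures. The p-values therefore measure the spread between these libraries, which may be technical. In bulk RNA, more transcripts per cell and more expressing cells cannot be told apart.

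HIF is a pair of an oxygen-regulated alpha subunit, such as *HIF1A* or *EPAS1*, and the constitutive partner *ARNT*. With oxygen present, the prolyl hydroxylases of the *EGLN* family modify the alpha subunit, and the ubiquitin ligase subunit VHL marks it for degradation. With little oxygen the pair accumulates, binds short core motifs in promoters and enhancers, and raises the transcripts of genes for glycolysis, pH control, mitochondrial removal, angiogenesis and collagen modification. The 8 genes cover several of these branches. Many of them also respond to other stresses and growth signals.

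Core motifs of HIF were looked for in the promoters of the members, since these genes are known as HIF targets. RefSeq promoters on GRCh38.p14, from 250 bases before to 50 after the start site, were held for 6 of the 8 members. Those of *NDRG1* and *BNIP3L* were not analysed here. A single window per member was used, the first listed, and any other start sites of these genes were not analysed. The cores ACGTG and GCGTG were searched on both strands. An uninterrupted CACGTG, which is also the core of the E-box motif, matches ACGTG once on each strand. Of 35116 promoters of this length, 21.4% held ACGTG, 36.5% GCGTG and 48.4% either of them. In 5 of the 6 members at least 1 core was present. *CA9* had a single ACGTG on the opposite strand 18 to 14 bases before the start site, and *P4HA1* a single one, also on the opposite strand, 86 to 82 bases before it. *ANKRD37* had 3 matches between 162 and 139 bases before the start, 2 of them from 1 CACGTG. *BNIP3* had 6 matches, 2 ACGTG from 1 CACGTG and 4 GCGTG, within a promoter of 80.7% GC. *PLOD2*, the member with the smallest change, had 3 matches, and the window used for *P4HA2* held neither core. These matches are a description of letters, and no binding was measured. The 5 promoters with a match are shown 5′ to 3′ on the strand of the gene, with the cores in capitals, to let their number and spacing be compared.
*CA9*, chr9:35673678-35673977, plus strand: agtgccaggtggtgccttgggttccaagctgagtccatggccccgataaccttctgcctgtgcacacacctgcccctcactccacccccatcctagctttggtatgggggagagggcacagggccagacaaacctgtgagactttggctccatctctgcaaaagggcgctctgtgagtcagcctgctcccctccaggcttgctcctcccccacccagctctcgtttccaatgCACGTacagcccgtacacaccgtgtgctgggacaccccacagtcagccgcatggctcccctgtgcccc
*P4HA1*, chr10:73096817-73097116, minus strand: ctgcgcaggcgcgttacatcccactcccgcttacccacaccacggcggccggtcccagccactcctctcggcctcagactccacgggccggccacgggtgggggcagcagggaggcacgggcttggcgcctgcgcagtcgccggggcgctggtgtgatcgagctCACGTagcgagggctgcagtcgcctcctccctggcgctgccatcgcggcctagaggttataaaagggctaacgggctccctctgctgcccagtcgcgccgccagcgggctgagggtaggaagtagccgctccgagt
*ANKRD37*, chr4:185396591-185396890, plus strand: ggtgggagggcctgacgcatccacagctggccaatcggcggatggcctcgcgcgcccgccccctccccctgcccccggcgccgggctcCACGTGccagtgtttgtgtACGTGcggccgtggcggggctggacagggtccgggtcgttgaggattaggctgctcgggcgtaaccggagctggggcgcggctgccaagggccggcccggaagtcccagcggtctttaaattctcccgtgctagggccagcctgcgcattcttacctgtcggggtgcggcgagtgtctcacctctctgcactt
*BNIP3*, chr10:131981874-131982173, minus strand: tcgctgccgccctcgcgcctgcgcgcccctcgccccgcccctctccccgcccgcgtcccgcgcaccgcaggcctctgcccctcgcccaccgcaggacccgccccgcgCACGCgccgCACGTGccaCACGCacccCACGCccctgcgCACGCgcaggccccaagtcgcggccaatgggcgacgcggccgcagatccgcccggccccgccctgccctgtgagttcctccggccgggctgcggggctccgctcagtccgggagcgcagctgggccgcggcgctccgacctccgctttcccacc
*PLOD2*, chr3:146161135-146161434, minus strand: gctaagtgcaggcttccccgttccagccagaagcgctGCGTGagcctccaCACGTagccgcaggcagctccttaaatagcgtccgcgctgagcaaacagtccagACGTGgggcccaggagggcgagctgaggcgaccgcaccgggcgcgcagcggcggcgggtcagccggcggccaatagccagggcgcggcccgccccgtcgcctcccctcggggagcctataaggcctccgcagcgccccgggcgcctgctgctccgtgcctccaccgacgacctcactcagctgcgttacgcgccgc

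**Figure D1:**
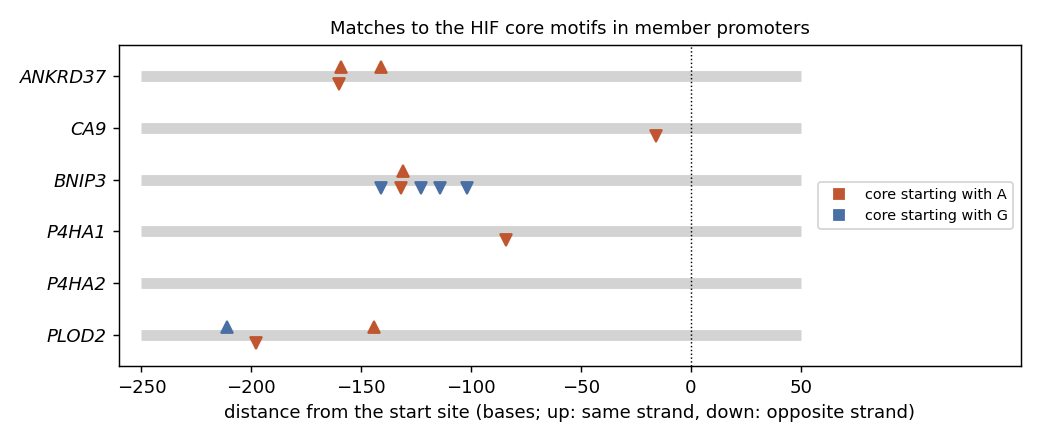
Positions of core motif matches in the 6 member promoters with a sequence, in bases from the start site (dotted line), with triangles up for the strand of the gene and down for the opposite strand. Cores starting with A are orange and those starting with G blue. *BNIP3* holds 6 matches (2 of them from a single CACGTG), *P4HA2* none, and the single match of *CA9* is the nearest to the start site.

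The counts were scaled by the TMM method of edgeR and compared between the conditions over all 14660 genes that passed its filter on low counts. To be called, a gene had to pass the thresholds of the study, 0.01 for the adjusted p-value and 0.5 for the size of the log2 fold change. All 8 members passed the filter on low counts, with 55 to 3867 reads in each library. Of the 8, 7 were called higher upon *SWINGN* knockdown and none lower, beside 4.91% of all tested genes called higher and 2.63% called lower. *PLOD2* was the exception. In each of the 8, the 3 knockdown libraries lay above the 3 control libraries, as they did for 18.7% of all tested genes. The median log2 fold change of the members was 1.74, beside −0.0027 over all tested genes. Since the members were selected on this comparison, nothing is read from these counts.

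**Figure D2:**
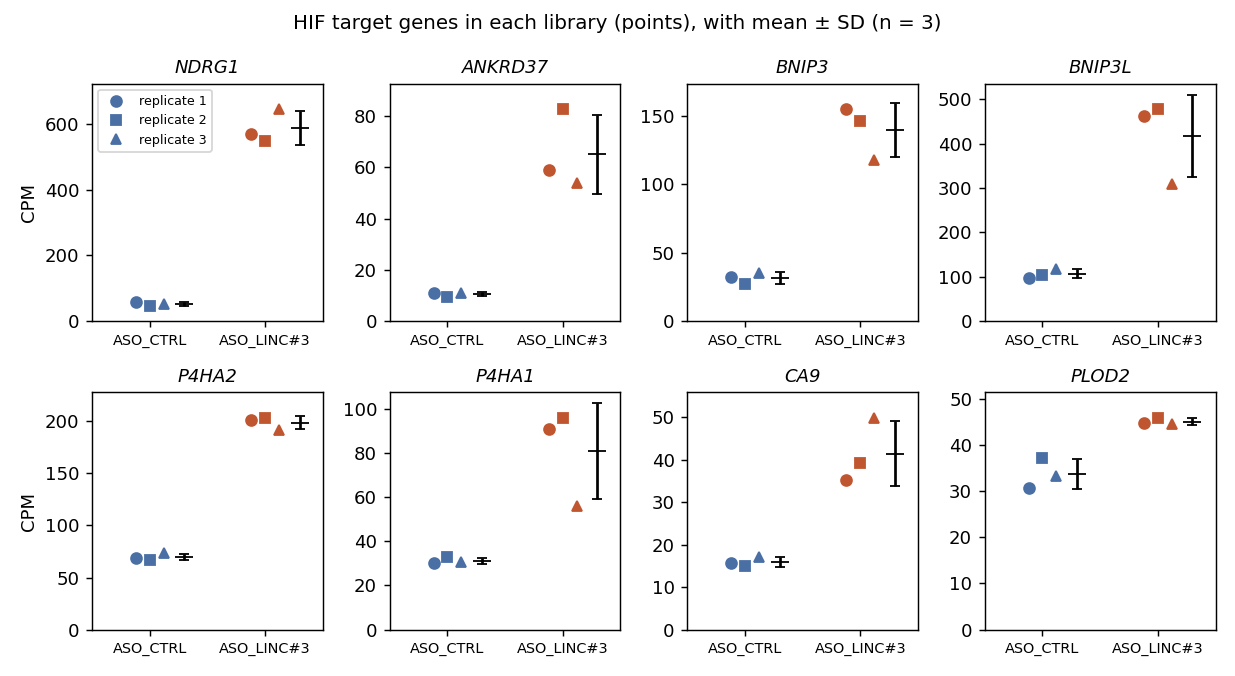
CPM of the 8 members in each library, with the replicate number given by the shape of the point and the mean ± SD (n = 3) in black. The axis of each panel starts at 0. In every panel the knockdown points lie above the control points, with the narrowest gap in *PLOD2*.

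*NDRG1*, which lies at 134249418 to 134314265 of chromosome 8 on the minus strand (gene positions are on GRCh37), encodes a cytoplasmic protein of the alpha/beta hydrolase fold that is widely used as a marker of hypoxia and has been described as a suppressor of metastasis. Its level was 57.0, 44.2 and 50.8 CPM in ASO_CTRL replicates 1, 2 and 3. In ASO_LINC#3 replicates 1, 2 and 3 it was 568, 547 and 646 CPM. The lowest knockdown library was 9.61 times as high as the highest control library. The mean was 50.7 ± 6.38 CPM in the controls and 587 ± 51.9 CPM upon knockdown (SD, n = 3 each), 11.6-fold higher, with a log2 fold change of 3.53 ± 0.15 (standard error). It ranked 21 among the log2 fold changes of the 14660 tested genes, the highest rank of the members. The rest of the *NDRG* family had smaller values. *NDRG2*, *NDRG3* and *NDRG4* had log2 fold changes of 0.28, −0.41 and 0.50 (adjusted p = 0.459, 0.264 and 0.0710, quasi-likelihood F-test of edgeR), and none was called. Without ASO_LINC#3 replicate 3, *NDRG3* was called lower at −0.76 (adjusted p = 0.00154, same test).

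*ANKRD37*, on the plus strand of chromosome 4 from 186317175 to 186321782, encodes a small protein of ankyrin repeats that is one of the most regularly induced HIF targets in cell lines. It had 10.9, 9.46 and 10.8 CPM in the control libraries, the lowest counts of the members at 55 to 113 reads. In the knockdown libraries it had 58.9, 82.8 and 54.0 CPM, with replicate 2 the highest. The log2 fold change was 2.65 (standard error 0.19), or 6.26-fold. At 55 reads, counting error alone amounts to 13.5% of the value. The gene overlaps *UFSP2* on the opposite strand, whose log2 fold change was −0.14 (adjusted p = 0.742, quasi-likelihood F-test of edgeR), and whether reads were counted by strand is not stated.

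*CA9*, on the plus strand of chromosome 9 from 35673925 to 35681156, encodes a carbonic anhydrase of the cell surface that hydrates carbon dioxide outside the cell and is used as a tissue marker of hypoxia. Its control level was 15.8, 15.0 and 17.1 CPM. In the knockdown libraries it was 35.1, 39.2 and 49.9 CPM, so that *CA9*, like *NDRG1*, had its highest value in replicate 3. The log2 fold change was 1.36 (standard error 0.17), or 2.57-fold. The gene overlaps *ARHGEF39* on the opposite strand, which had a log2 fold change of −0.27 (adjusted p = 0.402).

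The other genes of pH regulation were read from a list of 17 carbonic anhydrases, monocarboxylate, bicarbonate and proton transporters, of which 12 were tested. Of the 12, 1 was called higher (8.3%, beside 4.91% of all tested genes), and the median log2 fold change was 0.40. It was *CA12*, the other carbonic anhydrase of the cell surface known as a HIF target, which rose from 2.34 ± 1.00 to 10.1 ± 1.31 CPM, or by 2.16 ± 0.29 on the log2 scale (adjusted p = 0.000802, quasi-likelihood F-test of edgeR). *SLC16A3*, which exports lactate with a proton, had a log2 fold change of 0.66 (adjusted p = 0.0148), and the cytosolic *CA2* had one of 0.79 (adjusted p = 0.0157). Without ASO_LINC#3 replicate 3, 4 of these genes were called, 2 higher and 2 lower, beside 2616 of all 15176 genes tested in that fit.

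*BNIP3* and *BNIP3L* encode related proteins of the outer mitochondrial membrane that bind LC3-type proteins and so bring mitochondria to the autophagosome. *BNIP3*, on the minus strand of chromosome 10 from 133781188 to 133795471, had 32.2, 26.7 and 35.4 CPM in ASO_CTRL. It had 155, 146 and 118 CPM in ASO_LINC#3, with replicate 3 the lowest. Its log2 fold change was 2.15 (standard error 0.16), or 4.43-fold. *BNIP3L*, on the plus strand of chromosome 8 from 26240570 to 26363152, had the highest control level of the members, at 97.5, 104 and 117 CPM. In the knockdown libraries it had 462, 478 and 310 CPM, again with replicate 3 the lowest. The log2 fold change was 1.97 (standard error 0.18), or 3.93-fold. *PNMA2*, which the annotation lets overlap *BNIP3L* on the opposite strand, was also called higher, at a log2 fold change of 1.10 (adjusted p = 0.000867, quasi-likelihood F-test of edgeR).

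The annotation holds 44 pseudogenes named after *BNIP3*, and 1 of them, *BNIP3P1*, had a row in the table. It was looked at after its values were seen. It had 12.1, 10.2 and 8.30 CPM in the control libraries and 50.7, 48.1 and 46.4 CPM in the knockdown libraries. Its log2 fold change was 2.26 (standard error 0.17), close to that of *BNIP3*. The counts of the copy amounted to 23.5% to 39.4% of those of *BNIP3* in the 6 libraries. Reads of so similar a copy may belong to either gene, and reads shared with the copies without a row are not seen here. Neither was tested, so the level of *BNIP3* is uncertain by an unknown amount. Summed over both names, the control level was 41.6 ± 4.15 CPM and the knockdown level 188 ± 21.6 CPM, whose log2 ratio was 2.18, beside 2.15 for *BNIP3* alone.

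Other genes of mitochondrial removal were read from a list of 27 receptors, adaptors and core autophagy genes, of which 25 were tested. Of the 25, 4 rose and none fell past the thresholds, beside 4.91% of all tested genes called higher and 2.63% called lower. The median log2 fold change of the list was 0.20. The 3 with the smallest p-values were the adaptors *OPTN*, at a log2 fold change of 0.84 (adjusted p = 0.00121, quasi-likelihood F-test of edgeR), and *SQSTM1*, at 0.73 (adjusted p = 0.00129), and the LC3 gene *MAP1LC3B2*, at 1.02 (adjusted p = 0.00136). *MAP1LC3B2* is nearly identical in sequence to *MAP1LC3B*, so reads could be split between them. The count of 4 fell to 0 without ASO_CTRL replicate 3 and became 12, 9 higher and 3 lower, without ASO_LINC#3 replicate 3. Over all tested genes these fits called 359 and 2616, beside 1106 with all libraries.

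*P4HA1* and *P4HA2* encode the catalytic alpha subunits of collagen prolyl 4-hydroxylase, whose product, hydroxyproline, stabilises the collagen triple helix. *P4HA1*, on the minus strand of chromosome 10 from 74766975 to 74856732, had 30.0, 32.9 and 30.4 CPM in ASO_CTRL. It had 90.7, 95.8 and 56.1 CPM in ASO_LINC#3, so that replicate 3 stood well below the other knockdown libraries but above all controls. The log2 fold change was 1.39 (standard error 0.19), or 2.62-fold. *P4HA1* lost its call without ASO_CTRL replicate 3, where its log2 fold change was 1.37 and 6 members remained called. *P4HA2*, on the minus strand of chromosome 5 from 131525840 to 131631008, had 68.8, 67.3 and 73.5 CPM in the controls and 201, 203 and 191 CPM in the knockdown libraries. Its knockdown libraries had an SD of 3.18% of their mean, beside 26.7% in *P4HA1* and 1.61% in *PLOD2*. Its log2 fold change was 1.51 (standard error 0.12), or 2.84-fold. *PDLIM4* and *SLC22A4*, which overlap *P4HA2* on the opposite strand, had log2 fold changes of 0.61 (adjusted p = 0.0172) and 0.25 (adjusted p = 0.380), and neither was called.

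*PLOD2*, on the minus strand of chromosome 3 from 145752926 to 145881512, encodes the lysyl hydroxylase of the collagen telopeptides, which prepares collagen for stable cross-links. Its level was 30.6, 37.2 and 33.3 CPM in the controls and 44.8, 45.9 and 44.5 CPM in the knockdown libraries. The conditions did not overlap, but the lowest knockdown library was only 1.20 times as high as the highest control library. The log2 fold change was 0.42 (standard error 0.14), or 1.34-fold, below the bound of 0.5 and not past the adjusted p-value. It ranked 2813 among the tested genes, whereas the other 7 members ranked between 21 and 369. With single libraries left out, the value for *PLOD2* lay between 0.36 and 0.50, and no such fit called it.

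The remaining collagen-modifying enzymes were read from a list of 25 genes, of which 22 were tested. Of these, 2 rose (9.1%, beside 4.91% of all tested genes) and none fell past the thresholds. The median log2 fold change was −0.17, with 10 of the 22 positive. *P4HB*, the beta subunit that pairs with *P4HA1* and *P4HA2* and also works as a disulfide isomerase, stood at 487 ± 34.3 CPM in ASO_CTRL and 537 ± 72.1 CPM in ASO_LINC#3, a log2 fold change of 0.14 (adjusted p = 0.498, quasi-likelihood F-test of edgeR). The third alpha subunit gene, *P4HA3*, had 3 to 11 reads per library and was not tested. *PLOD1* and *PLOD3*, the other lysyl hydroxylases, had log2 fold changes of 0.56 (adjusted p = 0.0263) and −0.18 (adjusted p = 0.472). The genes that rose were *LOX*, the oxidase that cross-links collagen and a known HIF target, from 267 ± 39.4 to 1390 ± 217 CPM, and *PCOLCE2*, an enhancer of procollagen cleavage, at 0.83 ± 0.36 and 3.52 ± 1.62 CPM. Their log2 fold changes were 2.38 (adjusted p = 1.42e-05) and 2.22 (adjusted p = 0.00770), and *PCOLCE2* lost its call in each fit without 1 library other than ASO_LINC#3 replicate 3. *LOXL1*, an oxidase of elastin, had a log2 fold change of −0.75 (adjusted p = 0.0235). Without ASO_LINC#3 replicate 3, 6 genes of the list were called, 2 higher and 4 lower, and in every other fit without 1 library 1 was. Over all tested genes the fit without ASO_LINC#3 replicate 3 called 2616, beside 1106 with all libraries.

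Levels were compared between members per kb of the longest annotated transcript, on the CPM scale. In ASO_CTRL the order was *BNIP3L* (30.8 ± 2.94 CPM per kb), *P4HA2* (15.3 ± 0.71), *NDRG1* (12.7 ± 1.60), *P4HA1* (10.9 ± 0.54), *CA9* (10.3 ± 0.69), *BNIP3* (10.2 ± 1.44), *ANKRD37* (7.19 ± 0.55) and *PLOD2* (5.74 ± 0.57). The levels of *P4HA1*, *CA9* and *BNIP3* differed from each other by less than the SD of *BNIP3*. The gaps between the other neighbours in this order were larger than the SD of either gene. In ASO_LINC#3 *NDRG1* led at 147 ± 13.0 CPM per kb, followed by *BNIP3L* at 121 ± 26.9, a difference within the SD of *BNIP3L*, and in replicate 2 *BNIP3L* was slightly the higher. The next 3, *BNIP3* (45.5 ± 6.37), *ANKRD37* (45.2 ± 10.7) and *P4HA2* (43.6 ± 1.39), differed from each other by less than the SD of *BNIP3*. *P4HA1* (28.4 ± 7.59) and *CA9* (26.8 ± 4.93) lay within the SD of either gene of each other. *PLOD2* came last in both conditions, at 7.68 ± 0.12 CPM per kb upon knockdown. First-strand synthesis was primed with oligo(dT), so coverage may not scale with transcript length, which was not tested.

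The knockdown libraries were also compared with each other, as log2 CPM (2 counts being added first) from which the control mean was subtracted. Over the 8 members the median change was 1.83, 1.89 and 1.59 in replicates 1, 2 and 3, and the median over all tested genes stayed within 0.01 of 0 in each. In *ANKRD37* replicate 2 stood apart, with changes of 2.47, 2.96 and 2.35. In other members replicate 3 did, in both directions. *P4HA1* had changes of 1.54 and 1.61 in replicates 1 and 2 and 0.85 in replicate 3, and *BNIP3L* had 2.12, 2.17 and 1.55. In contrast, *CA9* had 1.13, 1.28 and 1.63, and *NDRG1* 3.49, 3.43 and 3.67. The change in replicate 3 was 53.7% of the mean of the other 2 in *P4HA1* and 135% of it in *CA9*, with a median of 89.9% over the members, beside 90.9% over all genes called higher.

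**Figure D3:**
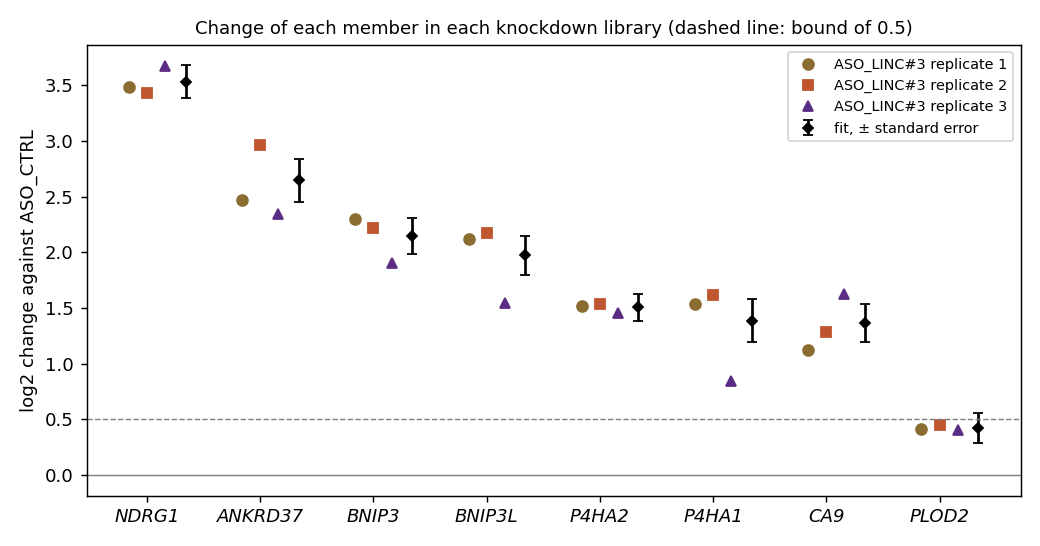
Log2 change of each member in the 3 knockdown libraries against the mean of the controls, with the fitted log2 fold change ± standard error in black, the members being ordered by the fitted value. *P4HA1* and *BNIP3L* are lowest and *NDRG1* and *CA9* highest in replicate 3, and all points of *PLOD2* lie below the bound of 0.5.

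Knockdown replicate 3 differed from the other libraries in base composition, which was looked at beside these gaps. Across the tested genes with a GC value, which were 87.2% of them and are not independent replicates, the deviation of a library from the mean log2 CPM had a correlation with transcript GC content of 0.42 in ASO_LINC#3 replicate 3, −0.28 and −0.34 in replicates 1 and 2, and between −0.02 and 0.11 in the controls. Among the members, *CA9* has the highest GC content (59.9%), and its replicate 3 lay 0.42 above the mean of replicates 1 and 2 on the log2 scale. *BNIP3L* (37.4%) and *P4HA1* (40.9%) lay 0.60 and 0.73 below it. With the trend of each library on GC content and transcript length removed, these gaps became −0.01 in *CA9*, −0.23 in *BNIP3L* and −0.44 in *P4HA1*. That of *BNIP3* went from −0.35 to −0.46, and that of *PLOD2* from −0.03 to 0.37. The fitted log2 fold change of *PLOD2* fell to 0.28 under this correction, and those of the other members lay between 1.32 and 3.49, with the same 7 called.

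**Figure D4:**
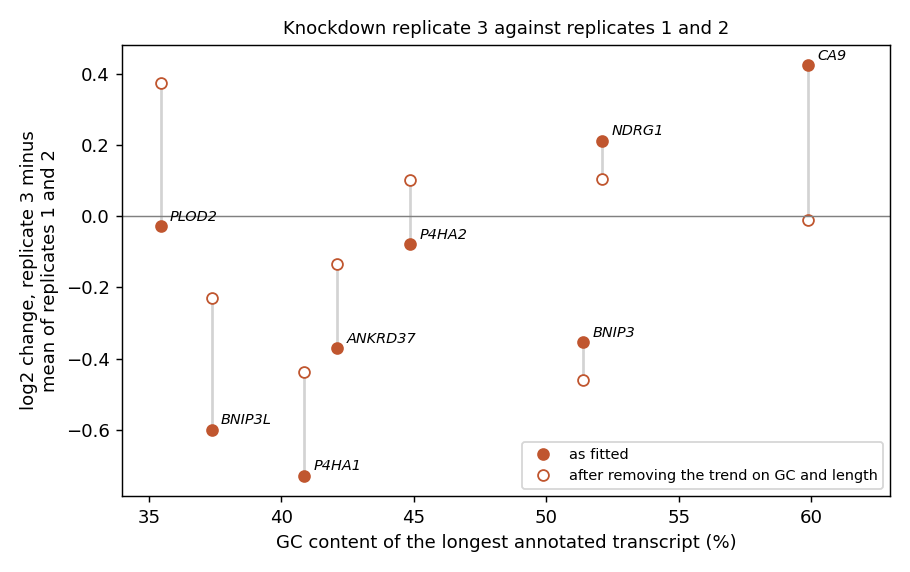
Log2 change in knockdown replicate 3 minus the mean of replicates 1 and 2, against the GC content of the longest annotated transcript. Filled points are as fitted and open points after removing the trend of each library on GC content and length. *CA9*, *BNIP3L* and *P4HA1* move toward 0 and *PLOD2* away from it.

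Transcripts of the oxygen-sensing machinery were read from a list of 13 genes, of which 12 were tested. Of the 12, 1 was called higher (8.3%, beside 4.91% of all tested genes), and the median log2 fold change was 0.09. *EGLN3*, a prolyl hydroxylase that is itself a HIF target, rose from 1.39 ± 0.22 to 7.85 ± 0.20 CPM, or by 2.51 ± 0.26 on the log2 scale (adjusted p = 0.000158, quasi-likelihood F-test of edgeR). *HIF1A* stood at 38.7 ± 11.3 and 36.95 ± 5.70 CPM in ASO_CTRL and ASO_LINC#3 (log2 fold change −0.05 ± 0.21, adjusted p = 0.894). *EPAS1*, the other main alpha subunit, was at 154 ± 9.34 and 215 ± 16.4 CPM, with a log2 fold change of 0.48 (adjusted p = 0.0223), and *EGLN1* at 0.51 (adjusted p = 0.0326). *ARNT*, *ARNT2*, *EGLN2*, *HIF1AN*, *VHL*, *CITED2*, *EP300* and *CREBBP* had log2 fold changes between −0.57 and 0.31, with none called. Without ASO_LINC#3 replicate 3 the count was 3, with *EPAS1* at 0.53 and *EGLN1* at 0.60 added. Over all tested genes that fit called 2616, beside 1106 with all libraries. Amounts of HIF protein were not measured in these libraries.

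A wider list of 46 HIF targets outside glycolysis was written from textbook knowledge, with the earlier results known, and 42 of them were tested. Of these, 23 rose and none fell past the thresholds, which is 54.8% called higher beside 4.91% of all tested genes. The median log2 fold change was 1.05, and 38 of the 42 were positive. Some genes stand on several lists, among them *LOX*, *CA12*, *EGLN1* and *EGLN3*. The smallest p-values were those of *ANGPTL4*, a secreted inhibitor of lipoprotein lipase, of *VEGFA*, the main growth factor of blood vessels, and of *DDIT4*, an inhibitor of mTORC1 signalling. *DDIT4* rose from 92.6 ± 9.47 to 422 ± 20.2 CPM, or by 2.19 on the log2 scale (adjusted p = 5.83e-06, quasi-likelihood F-test of edgeR). For *ANGPTL4* and *VEGFA* it was 4.93 and 2.17 (adjusted p = 1.74e-07 and 5.83e-06). Without ASO_CTRL replicate 3, 15 of the list were called higher, beside 249 of all 14854 genes tested in that fit. In the list of 22 glycolysis genes, all tested, 13 rose (59.1%) and none fell past the thresholds. The list had a median of 0.83, beside the median of 1.74 of the members. Its smallest p-values were those of the glucose transporters *SLC2A3* and *SLC2A1* and of the aldolase *ALDOC*, at log2 fold changes of 2.82, 1.67 and 2.06 (adjusted p = 5.83e-06, 3.19e-05 and 3.19e-05).

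**Figure D5:**
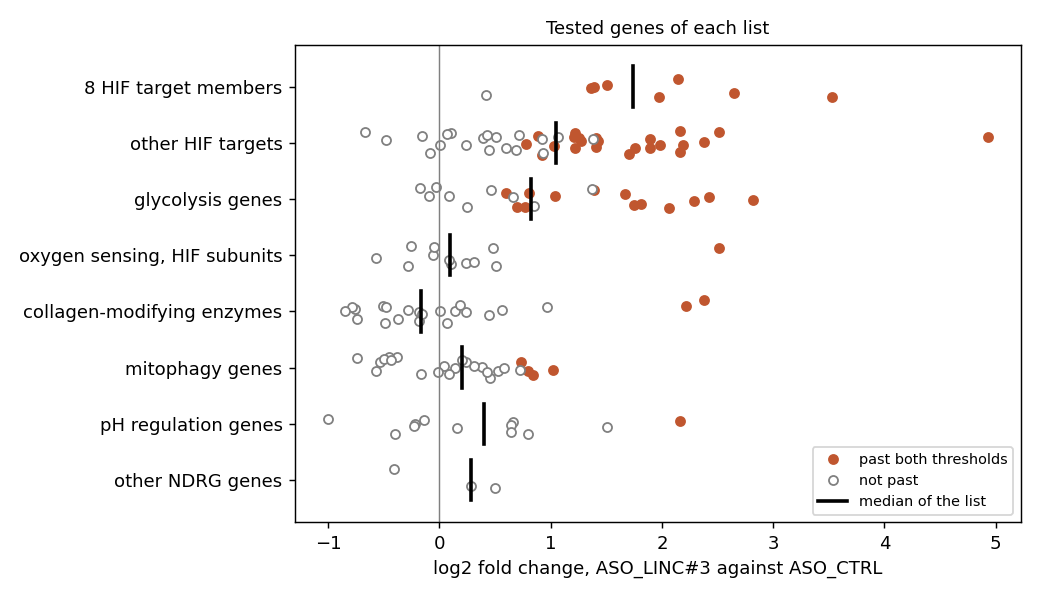
Log2 fold change of each tested gene, by list, with genes past both thresholds filled, the others open, and the median of each list as a black bar. The members, the other HIF targets and the glycolysis genes have medians of 1.74, 1.05 and 0.83, and the medians of the other lists lie between −0.17 and 0.40.

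The genes most like the members in pattern were named by the Pearson correlation, over the 6 libraries, with the mean standardised log2 CPM of the 8 members. They were *WIPI1*, an autophagy protein that binds phosphoinositides, the integrin subunit *ITGA2*, the fucosyltransferase *FUT11*, *VEGFA* and *MCL1*, an anti-apoptotic protein of the BCL2 family, all with r between 0.9989 and 0.9996. Their log2 fold changes were 1.38, 3.14, 1.67, 2.17 and 1.16. Of 10213 genes whose mean count was 50 or more, 1012 had r above 0.9, and the 6 libraries form 2 separate conditions, so that r is set largely by the difference between them. Of the members, *P4HA2* had the highest r with this mean (0.998) and *PLOD2* the lowest (0.941). Each member is itself part of the mean, so these values cannot be set beside those of other genes.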

How the data were processed

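The RNA-seq libraries of H226 cells comprised 3 of ASO_CTRL and 3 of ASO_LINC#3, grouped and numbered by their labels. The paragraph of the methods on this assay names BJ cells, while the labels name H226, which was followed. Per these methods the authors sequenced 75 bp in single-end mode and used STAR for alignment to hg19. The deposited values are raw counts per gene name. The counting tool, annotation and strand setting are not given in the sources used here. The 4 totals of reads assigned to no gene, 24.8% to 28.1% of each library, were left out.

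The test between conditions used edgeR 4.0.16 under R 4.3.3 (filterByExpr, TMM, quasi-likelihood F-test, Benjamini-Hochberg adjustment over 14660 genes). CPM are TMM-scaled and given as mean ± SD. Between replicates of a condition the chi-square per degree of freedom was 2.63 to 15.6, beyond sampling noise. With 3 libraries against 3, an exact permutation test cannot go below p = 0.1, so none was used. The script was tested on simulated data.

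The members and lists were chosen with earlier results of these data known. Genes named from each list are those of the oxygen-sensing and *NDRG* lists, close relatives of the members, and the 3 with the smallest p-values in every other list. Alternatives were DESeq2 1.42.0, limma-voom (limma 3.58.1), other scalings, filters and thresholds, the replicate number as a block, removal of the trend on GC content and length, and each library left out. The block together with the GC correction was added after seeing the data. Positions and lengths came from a GENCODE annotation on GRCh37 (the build hg19 names), which may differ from that of the authors, and 13370 names matched it directly and 973 by a RefSeq synonym.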

Additional observations from a re-analysis of the deposited data

How the results depend on the processing

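Over 18 alternatives, 7 of the 8 members were called in all but 1, which was the fit without ASO_CTRL replicate 3 with 6, and *PLOD2* was called in none. The members were selected on this same comparison of the same libraries, so their counts here are a description and no independent support. Leaving out single libraries gave 6 to 7 members, 15 to 28 other HIF targets, 9 to 15 glycolysis genes, 1 to 6 collagen-modifying enzymes, 0 to 12 mitophagy genes, 1 to 4 pH regulation genes, 1 to 3 oxygen-sensing genes and 0 to 1 of the other *NDRG* genes. With DESeq2 the counts became 9 mitophagy and 3 pH regulation genes. With at least 10 counts in every library, 1 collagen-modifying and 0 oxygen-sensing genes were called, the latter because *EGLN3* did not pass. At an adjusted p-value below 0.05 there were 7 collagen-modifying, 9 mitophagy, 6 pH regulation and 3 oxygen-sensing genes. With glmTreat, which tests against a change of 0.5, 15 other HIF targets, 1 collagen-modifying, 0 mitophagy and 8 glycolysis genes passed, and at that setting all 7 members did. The correction for GC content and length gave 6 collagen-modifying, 7 mitophagy and 5 pH regulation genes, and together with the replicate block 4 collagen-modifying and 2 pH regulation genes. The causes of the other shifts were not tested. No named gene reversed its direction with a call.

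Deviations of same-numbered libraries from the means of their conditions had correlations of 0.06, −0.15 and −0.18. With 3 libraries per condition, these values cannot tell whether the numbers mark paired samples. With the replicate block, 7 members were called and the count over all genes went from 1106 to 656. That count was 384 with glmTreat, 2465 at an adjusted p-value below 0.05 and 1692 after the GC correction. It was 1526 with DESeq2, 917 with at least 10 counts in every library, and 1169 with the block and the GC correction together. Without single libraries it ran from 359 (ASO_CTRL replicate 3) to 2616 (ASO_LINC#3 replicate 3).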
